A study of Homo sapiens with 30 samples.

Results

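The genes described here serve protein folding in the endoplasmic reticulum (ER) and the unfolded protein response. They are a list of 40 symbols, comprising 11 ER chaperones and their partners, 6 disulfide enzymes, 6 stress sensors and transcription factors, 10 genes of ER-associated degradation and 7 genes of the protein translocation channel. A gene was kept where its CPM (read counts scaled to a common library size) was at least 1 in at least 2 libraries. All 40 were in the table of 20114 genes, and 39 passed, among 12743 genes that did so and were tested. DERL3, a factor of ER-associated degradation, did not pass. The poly-A RNA came from SUM190, a long-established inflammatory breast cancer line, grown as parental cells and as derivatives resistant to doxorubicin (DR) or paclitaxel (PR). There were 30 libraries in 15 groups of 2. Drug or the vehicle DMSO was added 24 h after seeding and left for 72 h. Parental cells formed 7 groups, namely DMSO, 2.5 nM and 10 nM paclitaxel, 65 nM and 1 µM doxorubicin, 15 µM of the JAK1 and JAK2 inhibitor ruxolitinib, and ruxolitinib with 2.5 nM paclitaxel. DR cells formed 3 groups, in DMSO or in doxorubicin at 350 nM or 1 µM. PR cells formed 5 groups, in DMSO, paclitaxel at 6.5 or 10 nM, ruxolitinib at 15 µM, and ruxolitinib with 6.5 nM paclitaxel. The labels give 15 nM, not 15 µM, for ruxolitinib in both combinations. Each resistant derivative is 1 line, and the labels do not say how it was derived or that its replicates were grown apart, so p-values reflect only how far these libraries spread, and that spread may be technical.

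Secreted and membrane proteins enter the ER through the SEC61 channel, are folded there by chaperones such as BiP (HSPA5) and by protein disulfide isomerases, and are handed back to the cytosol for degradation when they fail to fold. A load of unfolded protein activates the sensors IRE1 (ERN1), ATF6 and PERK (EIF2AK3). IRE1 splices the XBP1 messenger, and the resulting factor works with cleaved ATF6 to raise chaperones and degradation genes, while PERK slows translation and favours ATF4 and its targets. Reads counted per gene do not tell spliced from unspliced XBP1, and messenger levels do not show whether a sensor is active.

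Luminal epithelial markers were high in every library, with ERBB2 at 1516 to 3736 CPM and EPCAM at 305.7 to 441.3 CPM, while of the immune markers CD3E stayed at or below 0.505 CPM, CD14 at or below 5.20 and PTPRC at or below 5.96. The macrophage marker CD68 was higher, at 6.77 to 36.5 CPM, and the endothelial VWF reached 7.08 CPM. Some of the libraries stood apart. DR cells at 1 µM doxorubicin, replicate 1, had 218 CPM of the immunoglobulin joining chain IGJ, and PR cells at 10 nM paclitaxel, replicate 2, had 15.7 CPM, against 0 to 1.53 CPM in the other 28. The plasma cell factor IRF4 was at 17.6 and 10.6 CPM in these 2 libraries (0 to 0.454 in the others). MZB1 was at 10.8 and 1.60 CPM (0 to 0.165), and TNFRSF17 at 4.01 and 2.96 CPM (0 to 0.0964). The plasma cell markers other than SDC1 summed to 250.6 and 30.8 CPM there and to 0 to 1.65 CPM elsewhere, while SDC1, which these epithelial cells also expressed, ranged from 155 to 276 CPM. DERL3 was read in only these 2 libraries, at 0.347 and 2.77 CPM, and its count of 0 in the other 28 allows up to 0.0967 to 0.163 CPM (3 reads, counting error only). Plasma cells are rich in ER, so the counts of members that use these libraries are also given without them. Results without them are not given for genes outside the list of 40, and the part of such RNA in the results was not tested further. In several groups the replicates also differed from each other along transcript GC content. Spearman rho between GC and the log2 difference (across genes, which are not independent) was -0.785 in parental DMSO, the largest in size. It was 0.72 in parental cells at 1 µM doxorubicin and 0.664 in parental cells at 10 nM paclitaxel. At the lower doxorubicin dose it was -0.553 in parental and 0.672 in DR cells. Parental cells with ruxolitinib and paclitaxel had -0.676. The smallest in size was 0.0202, in DR cells at 1 µM doxorubicin. The SD over members of the log2 difference between replicates was 0.223 in parental DMSO and 0.238 in parental cells at 1 µM doxorubicin. It was 0.0676 to 0.189 in the other groups.

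**Figure D1:**
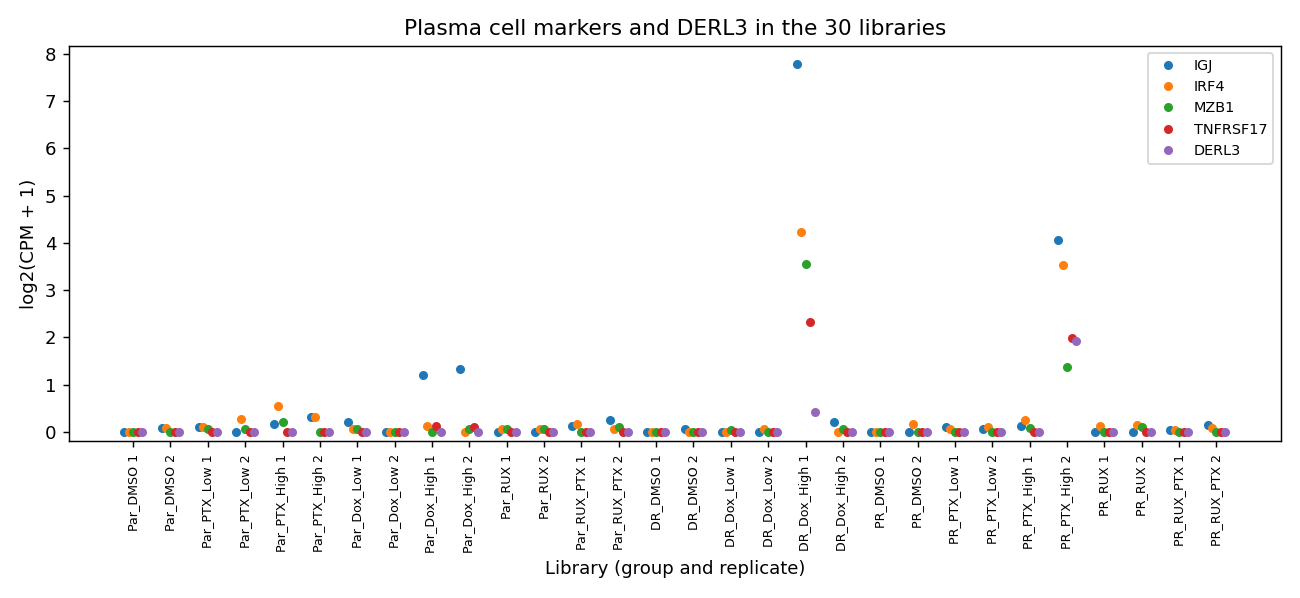
Level of 4 plasma cell markers and of DERL3 in each of the 30 libraries, as log2(CPM + 1), with groups named by line (Par, DR, PR), drug (PTX paclitaxel, Dox doxorubicin, RUX ruxolitinib) and dose. Only DR at the high doxorubicin dose, replicate 1, and PR at the high paclitaxel dose, replicate 2, hold DERL3, and both lie above the other 28 libraries for all 4 markers.

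Across the 15 groups, the lowest group mean of HSPA5, HERPUD1, CRELD2, DNAJB11, SYVN1, SEL1L, SEC61A1, EDEM1 and DERL1 lay in DR cells at 1 µM doxorubicin. Parental cells at 1 µM doxorubicin held the lowest mean of PDIA4, CALR, HYOU1, XBP1, CREB3L2, ATF6, SDF2L1, DNAJC3, ERO1L, EDEM2, EDEM3, SSR1, SSR2 and SSR3. The same parental group held the highest mean of ERN1, DNAJB9, DNAJB11, ERO1LB, DERL2, OS9, SEC61B, SEC61G and SSR4. Fold changes below are differences of log2(CPM + 1) with their standard error, and a change was called where limma, fitted to all 12743 genes, gave an adjusted p (Benjamini-Hochberg) under 0.05. In bulk RNA, fewer cells of a kind and less RNA per cell cannot be told apart.

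**Figure D2:**
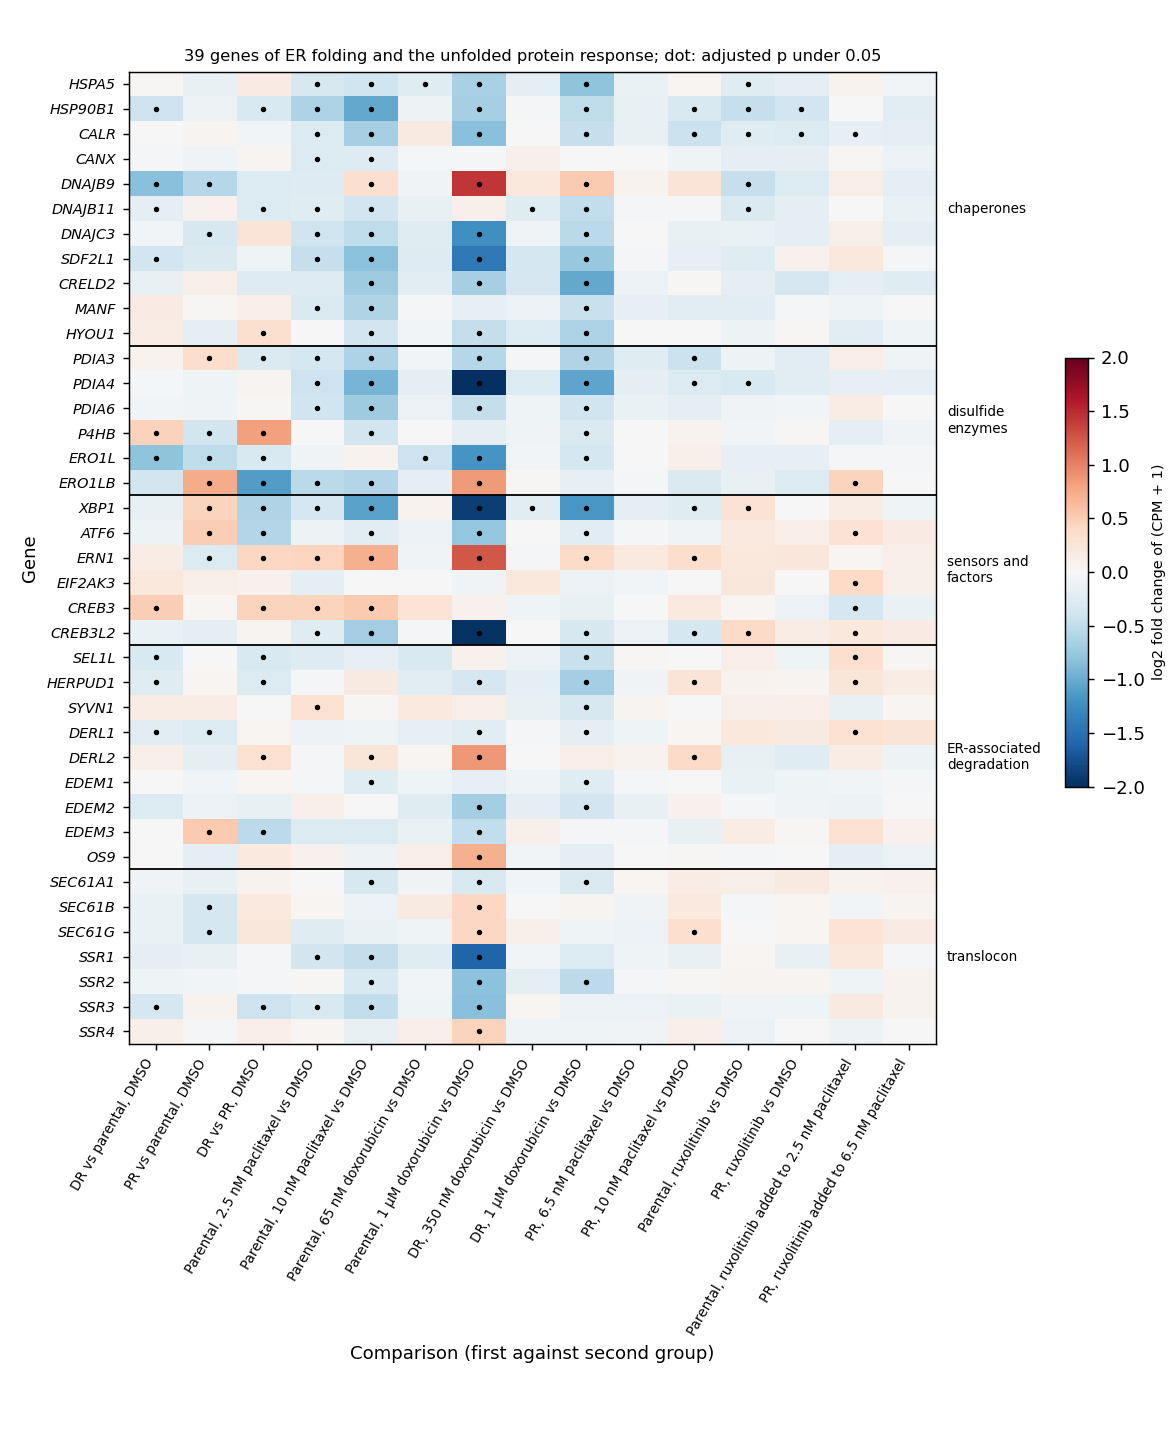
Log2 fold change of (CPM + 1) for the 39 tested members (rows, by role) in 15 comparisons (columns), with a dot where the adjusted p was under 0.05. Blue dominates the columns of 10 nM paclitaxel in parental cells (23 fell) and of 1 µM doxorubicin in parental (22 fell) and DR cells (25 fell), while the row of ERN1 is red in all 3.

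Paclitaxel binds microtubules and stops cells in mitosis. At 10 nM in parental cells it lowered the chaperones and disulfide enzymes broadly. Of the 39 members, 23 fell and 4 rose, which is 59% and 10.3%, where 28.1% and 20.1% of all genes tested fell and rose (48.2% were called). The median member changed by -0.31, against -0.045 over all genes. By role, 10 of 11 chaperones fell and 1 rose, 5 of 6 disulfide enzymes fell, and 4 of 7 translocation genes fell. Of 9 degradation genes, 1 fell and 1 rose. Beside these changes, 2 of 3 tested immune markers rose (CD68 0.92 and CD14 0.83). All 5 listed immune markers summed to 18.1 and 19.1 CPM in DMSO and 38.9 and 35.2 CPM in the drug, with CD3E at 0 in both treated libraries, and their part in the result was not tested.

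HSP90B1, which encodes GRP94, the Hsp90 of the ER, had 1622 and 1449 CPM in DMSO and 732 and 783 CPM in 10 nM paclitaxel. Both treated libraries lay far below both controls, a change of -1.02 ± 0.08 (limma adjusted p = 1.79e-09). HSPA5, the central Hsp70 of the ER, fell less, from 1717 and 1627 CPM to 1256 and 1289 CPM, or -0.39 ± 0.07 (adjusted p = 6.92e-05), again without overlap. The lectin chaperone calreticulin (CALR) went from 1164 and 1229 CPM to 766 and 738 CPM (-0.67 ± 0.06), and its membrane-bound relative calnexin (CANX) changed by -0.26 ± 0.08. The partners of these chaperones fell too. SDF2L1, which works with the cochaperone DNAJB11, was at 21 and 23.8 CPM in DMSO and 13.6 and 11 CPM in the drug (-0.82 ± 0.13, adjusted p = 2.59e-05). The ER stress protein CRELD2 changed by -0.72 ± 0.11 and MANF, a small secreted stress protein that binds BiP, by -0.60 ± 0.09. HYOU1, the nucleotide exchange factor of BiP, changed by -0.39 ± 0.11, DNAJC3 by -0.51 ± 0.11 and DNAJB11 by -0.38 ± 0.07. The exception was DNAJB9, a cochaperone induced by spliced XBP1, at 38.4 and 29.2 CPM in DMSO and 39.2 and 44.8 CPM in the drug. It rose by 0.31 ± 0.12 (adjusted p = 0.0337), a call lost without parental DMSO replicate 2 or paclitaxel replicate 2 (adjusted p up to 0.458).

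Among the enzymes that form and shuffle disulfide bonds, PDIA4 had 409 and 431 CPM in DMSO and 235 and 208 CPM in 10 nM paclitaxel. Its change of -0.92 ± 0.09 (limma adjusted p = 1.41e-08) was the largest of this group. PDIA6 changed by -0.71 ± 0.07, PDIA3, which acts on glycoproteins held by calreticulin, by -0.61 ± 0.07, and the classical isomerase P4HB by -0.36 ± 0.09. ERO1LB, a low-level oxidase that recharges the isomerases, changed by -0.58 ± 0.15, and its relative ERO1L was not called (0.07 ± 0.11, adjusted p = 0.63).

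The sensors and factors moved in both directions. XBP1 was at 1173 and 1183 CPM in DMSO and 561 and 566 CPM in 10 nM paclitaxel, a change of -1.06 ± 0.06 (limma adjusted p = 3.23e-12) and the largest fall among the members. CREB3L2, a membrane-bound factor related to ATF6, went from 204 and 206 CPM to 134 and 119 CPM (-0.69 ± 0.08). ERN1, which encodes the IRE1 kinase and endonuclease that splices XBP1, went the other way, from 36.9 and 38.4 CPM to 64.3 and 59.7 CPM (0.70 ± 0.07, adjusted p = 6.6e-08). CREB3, another membrane-bound factor, rose by 0.52 ± 0.11, with 19.8 and 24.1 CPM before and 34.1 and 29.5 CPM after. ATF6 was lower, at -0.22 ± 0.08 (adjusted p = 0.0372). That call was lost without DMSO replicate 1 or either paclitaxel library (adjusted p up to 0.261) and with another scaling of the libraries (adjusted p = 0.0909). PERK (EIF2AK3) had 72.8 and 62 CPM and 63.9 and 71.8 CPM, with overlapping libraries and no call (0.01 ± 0.09, adjusted p = 0.931).

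Degradation and translocation genes changed less. HERPUD1, a stress-induced adaptor of the degradation complex, was not called (0.17 ± 0.07, limma adjusted p = 0.0606). DERL2, a membrane component of retrotranslocation, was at 27.2 and 27 CPM in DMSO and 32.4 and 32.4 CPM in 10 nM paclitaxel (0.25 ± 0.09, adjusted p = 0.0194), and its call was lost without any 1 of these 4 libraries (adjusted p up to 0.0685). The mannosidase-like EDEM1 changed by -0.24 ± 0.08. In the translocon-associated complex, which assists insertion of some signal peptides, SSR1 changed by -0.48 ± 0.11, SSR2 by -0.31 ± 0.10 and SSR3 by -0.49 ± 0.09. The channel subunit SEC61A1 changed by -0.33 ± 0.07.

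The lower dose of 2.5 nM gave falls in the same roles at a smaller size. Of the 39 members 16 fell and 3 rose, or 41% and 7.69%, where 17.1% and 9.71% of all genes did (26.8% were called). These were 8 chaperones, 4 disulfide enzymes, XBP1 and CREB3L2, and 2 translocation genes. HSP90B1 had 1044 and 947 CPM (-0.62 ± 0.08, limma adjusted p = 3.76e-05) and PDIA4 had 323 and 306 CPM (-0.42 ± 0.09). PDIA6 changed by -0.39 ± 0.07 and XBP1, at 971 and 899.5 CPM, by -0.33 ± 0.06 (adjusted p = 0.000727), while ERN1 rose to 49.6 and 52.6 CPM (0.43 ± 0.07). HSPA5 at 1436 and 1253 CPM changed by -0.32 ± 0.07 (adjusted p = 0.00314). ATF6 (-0.11), EIF2AK3 (-0.19) and HERPUD1 (-0.03) were not called (adjusted p = 0.345, 0.113 and 0.8). Other calls were CREB3 (0.44), ERO1LB (-0.55), DNAJC3 (-0.39), SDF2L1 (-0.47) and the ubiquitin ligase SYVN1 (0.31). The count rested on single libraries, with 7 members called without parental DMSO replicate 1 and 5 without paclitaxel replicate 2. Without either of these libraries, HSPA5, CREB3, ERO1LB, DNAJC3, SDF2L1 and SYVN1 lost their calls (adjusted p up to 0.101, 0.178, 0.271, 0.325, 0.166 and 0.551). SDF2L1 also lost it without DMSO replicate 2, and SYVN1 without paclitaxel replicate 1 and with replicate number as a block (adjusted p = 0.0541). The correction for GC content and length also ended the calls of ERO1LB (-0.18, adjusted p = 0.279) and SYVN1 (0.13, adjusted p = 0.18), and took the member median from -0.24 to -0.10. Of 3 tested immune markers 2 rose at this dose (CD68 0.51 and CD14 0.54), and the 5 listed summed to 26 and 28.6 CPM, against 18.1 and 19.1 CPM in DMSO. Their part in the result was not tested.

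**Figure D3:**
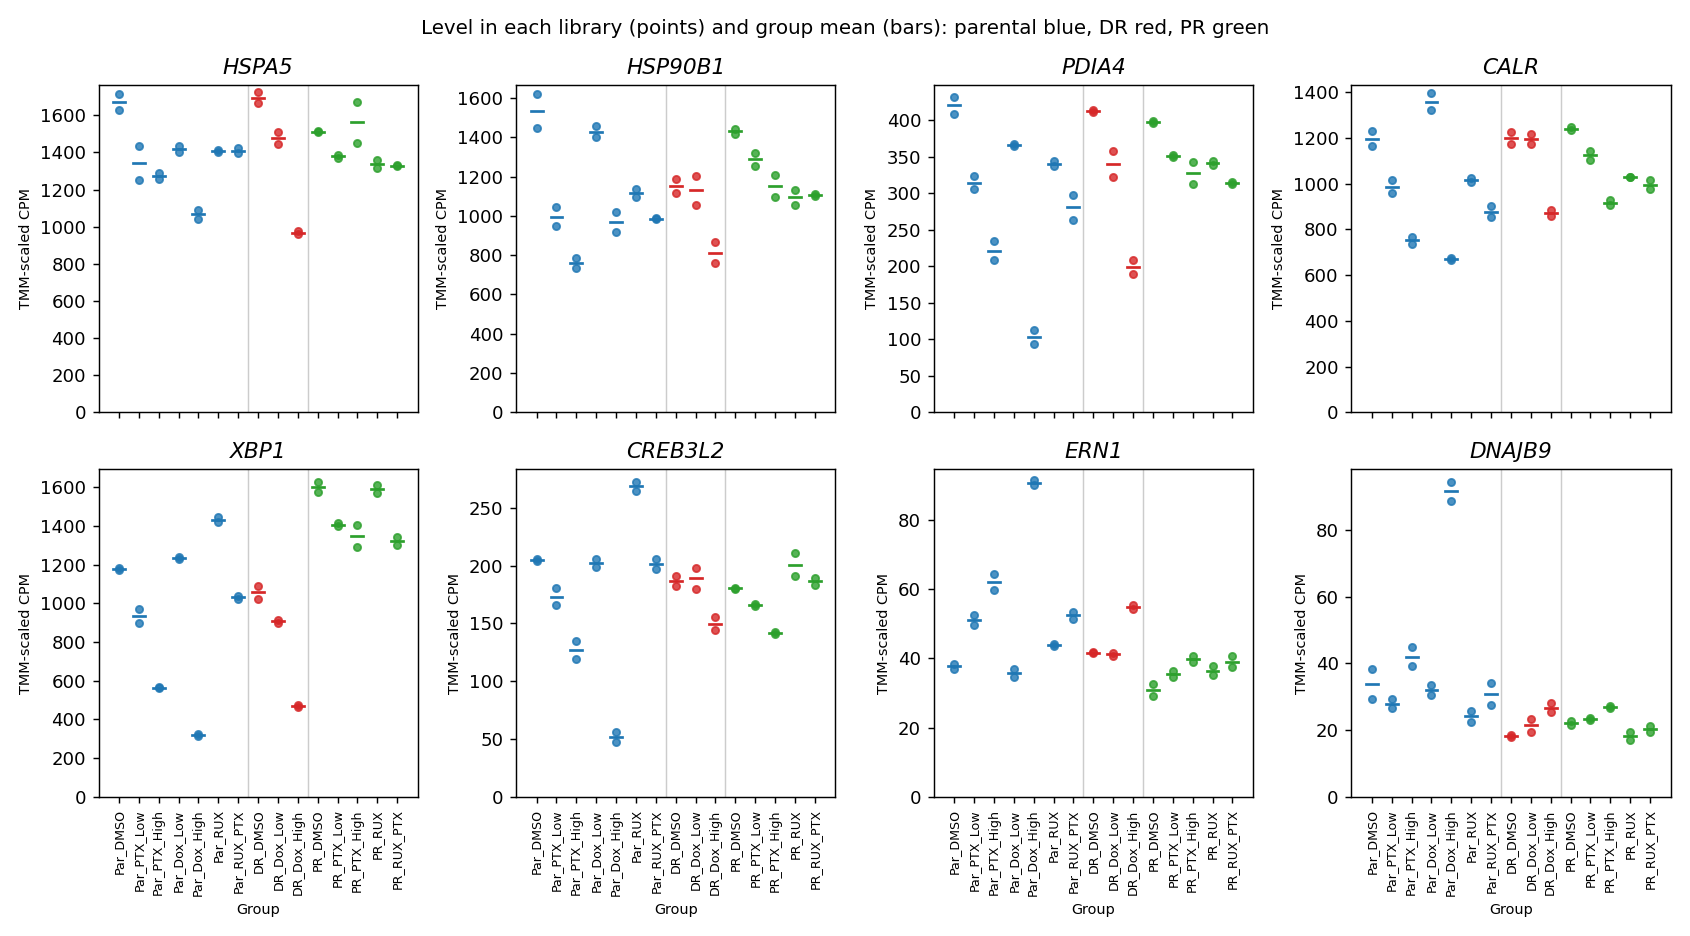
Level of 8 members in TMM-scaled CPM (vertical axes from 0) in each library (points) of the 15 groups, with the group mean as a bar, parental groups in blue, DR in red and PR in green. XBP1 is at 316 and 324 CPM in parental cells at 1 µM doxorubicin against 1173 and 1183 CPM in DMSO, while ERN1 in the same libraries is at 91.6 and 90.1 CPM against 36.9 and 38.4 CPM.

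Some members carry the ER stress response element (ERSE) in their promoters, the site through which ATF6 and XBP1 are known to act. Promoters, taken from RefSeq (GRCh38.p14) as 250 bases before to 50 after the start, were matched for 37 of the 40 members. PDIA3, DERL1 and DERL3 were not matched. Searching both strands for ERSE, spelled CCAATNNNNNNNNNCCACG, found it in 7 of 37 member promoters (18.9%) and in 22 of all 27305 (0.0806%). ERSE-II, which is ATTGG and CCACG with any 1 base between them, was in 3 members (8.11%) and 15 promoters in all (0.0549%), none of them the 7 with ERSE. The core TGACGTG of the unfolded protein response element was in HYOU1 alone (2.7%), where it overlaps an ERSE-II copy, and in 546 of all promoters (2%). Of the 10 members that hold either element, 7 are shown as examples of where it lies, with 20 bases of context on each side, on the strand of the gene, and the element in capitals. An element that lies on the opposite strand appears as its reverse complement, starting with CGTGG. They are HSPA5 (chr9:125241371-125241429, minus strand), HSP90B1 (chr12:103930196-103930359, plus strand, 2 elements), CALR (chr19:12938364-12938422, plus strand), CRELD2 (chr22:49918534-49918592, plus strand), XBP1 (chr22:28800583-28800641, minus strand), SDF2L1 (chr22:21642094-21642144, plus strand) and HERPUD1 (chr16:56932005-56932055, plus strand), of which the last 2 hold ERSE-II.
HSPA5: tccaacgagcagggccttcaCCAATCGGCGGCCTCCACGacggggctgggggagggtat
HSP90B1: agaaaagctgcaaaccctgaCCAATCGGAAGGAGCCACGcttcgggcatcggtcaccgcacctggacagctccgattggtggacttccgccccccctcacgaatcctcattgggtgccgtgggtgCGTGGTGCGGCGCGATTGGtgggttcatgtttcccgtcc
CALR: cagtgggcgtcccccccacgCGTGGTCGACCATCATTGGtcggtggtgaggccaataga
CRELD2: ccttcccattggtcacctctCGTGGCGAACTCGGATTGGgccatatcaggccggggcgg
XBP1: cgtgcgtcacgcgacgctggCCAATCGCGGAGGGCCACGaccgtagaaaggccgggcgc
SDF2L1: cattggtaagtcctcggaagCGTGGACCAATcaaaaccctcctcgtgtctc
HERPUD1: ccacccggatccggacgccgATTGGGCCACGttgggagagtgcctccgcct
The other members with an element were CANX and ERO1LB (ERSE) and HYOU1 (2 copies of ERSE-II). In parental cells at 10 nM paclitaxel, the 10 members with either element had a median change of -0.63 and 9 fell. The other 29 tested members had a median of -0.22, with 14 down and 4 up. These 29 include PDIA3 and DERL1, whose promoters were not searched and may hold an element. The exception among the 10 was HERPUD1. Over all genes, 28.1% fell and 20.1% rose. The sets also differ in role, as HSPA5, HSP90B1, CALR, CANX, CRELD2, SDF2L1 and HYOU1 are chaperones. The 11 chaperones together had a median of -0.51, with 10 down and 1 up. Of those without an element, MANF, DNAJC3 and DNAJB11 fell and DNAJB9 rose. Role and element were not separated. A match describes letters in this window and does not show that a factor binds there, and no test was made between these sets.

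PR cells at the same 10 nM of paclitaxel gave fewer calls. In them 6 members fell and 4 rose, or 15.4% and 10.3%, where 6.99% and 6.62% of all genes did, and the median member changed by 0.00348. CALR, the largest fall, had 1233 and 1248 CPM in DMSO and 928 and 908 CPM in the drug (-0.43 ± 0.06, limma adjusted p = 3.21e-05). PDIA3 changed by -0.42 ± 0.07 and CREB3L2 by -0.35 ± 0.08. HSPA5 was at 1508 and 1515 CPM in DMSO and at 1674 and 1451 CPM in the drug, which overlap (0.04 ± 0.07, adjusted p = 0.722). HSP90B1 (-0.31 ± 0.08), XBP1 (-0.25 ± 0.06) and PDIA4 (-0.28 ± 0.09) were called lower. ERN1 (0.35 ± 0.07), DERL2 (0.38 ± 0.09), HERPUD1 (0.25 ± 0.07) and the channel subunit SEC61G (0.34 ± 0.11) were called higher. ATF6 (-0.06) and EIF2AK3 (0.01) were not called (adjusted p = 0.664 and 0.977). Without replicate 2 of the paclitaxel group, the library with plasma cell markers, 3 fell and 3 rose, and HSP90B1, PDIA4 and XBP1 lost their calls, as did HERPUD1. Without PR DMSO replicate 1, 3 were called, and ERN1, DERL2, SEC61G, HERPUD1, HSP90B1, PDIA4 and XBP1 lost theirs. Without PR DMSO replicate 2, 5 were called, and CREB3L2, HERPUD1, HSP90B1, PDIA4 and SEC61G lost theirs. Without paclitaxel replicate 1, HERPUD1 and SEC61G lost theirs, and the libraries of SEC61G overlapped between the groups. CD68 rose (0.41), 1 of 3 tested immune markers, and the 5 listed summed to 9.74 and 10.3 CPM in DMSO and 13.8 and 15 CPM in the drug, their part in the result not being tested. Over these libraries the adjusted p reached 0.134 for HSP90B1, 0.22 for PDIA4, 0.0919 for XBP1, 0.0715 for ERN1, 0.0971 for DERL2, 0.0519 for CREB3L2, 0.158 for HERPUD1 and 0.654 for SEC61G.

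The test of the difference itself showed a smaller response in PR than in parental cells. Of the 39 members, 12 had a response that differed (30.8%, where 10.8% of all genes did), 11 of them with a positive difference (PR minus parental), a direction that 6.87% of all genes had. All 12 were smaller in absolute size in PR cells, of which 11 had fallen in parental cells. For 4 of the 12 the estimates had opposite signs in the lines. Such counts were not made over all genes, of which 13.6% were called in PR and 48.2% in parental cells at 10 nM. A smaller response in PR cells is therefore not shown to be particular to the members. XBP1 differed by 0.82 ± 0.08 (limma adjusted p = 1.1e-06), from -1.06 in parental to -0.25 in PR cells. CRELD2 differed by 0.74 ± 0.15 (-0.72 against 0.02), HSP90B1 by 0.70 ± 0.12, PDIA4 by 0.65 ± 0.12 and PDIA6 by 0.52 ± 0.10. HSPA5 differed by 0.44 ± 0.10 (adjusted p = 0.00564). By role, 6 of 11 chaperones, 3 of 6 disulfide enzymes, XBP1 and SEC61A1 had a positive difference, and none of the degradation genes was among the 12. For ATF6 the difference was 0.15 ± 0.12, for EIF2AK3 -0.01 ± 0.13 and for HERPUD1 0.08 ± 0.11 (adjusted p = 0.455, 0.983 and 0.699). Without the PR library that holds plasma cell markers, 13 had a positive difference and 1 a negative one. Without paclitaxel replicate 1 of the PR group, 7 were left, all positive. ERN1, the single member with a negative difference (-0.35 ± 0.10, adjusted p = 0.0303), lost its call without parental DMSO replicate 1, parental paclitaxel replicate 1, PR DMSO replicate 2 or PR paclitaxel replicate 1 (adjusted p up to 0.168). SDF2L1 (0.66 ± 0.19) lost its call without parental DMSO replicate 2, parental paclitaxel replicate 2, PR DMSO replicate 1 or PR paclitaxel replicate 1 (adjusted p up to 0.115), and without both libraries with plasma cell markers (0.051).

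At 6.5 nM paclitaxel, 0 of the 39 members were called in PR cells by limma, where 0.0942% of all genes were (0.0706% up and 0.0235% down). At an unadjusted p under 0.05 there were 4, and voom on the recovered reads also called 0. HSPA5 was at 1386 and 1372 CPM (-0.13 ± 0.07, adjusted p = 0.909), HSP90B1 had a difference of -0.15 ± 0.08 and XBP1 one of -0.19 ± 0.06 (adjusted p = 0.42). ERN1 (0.20), HERPUD1 (-0.06), ATF6 (-0.04) and EIF2AK3 (-0.06) were not called either.

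Doxorubicin, an anthracycline that poisons topoisomerase II, gave the largest changes of single members among the 15 comparisons at 1 µM in parental cells. Of the 39 members, 22 fell and 8 rose, or 56.4% and 20.5%. Over all genes 41.5% fell and 34.3% rose, so that 75.8% of all genes and 76.9% of the members were called. The share of members called was thus near the background. The median member changed by -0.34, against -0.07 over all genes. Of 3 tested immune markers 2 rose (CD14 2.07 and PTPRC 1.17), and the 5 listed summed to 18.1 and 19.1 CPM in DMSO and 28.4 and 25.7 CPM in the drug. Of 2 tested endothelial markers, VWF rose by 2.47 and CDH5 was called lower at -1.2. Of 10 luminal markers 6 fell and 3 rose. The part of these markers in the result was not tested.

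PDIA4 was at 409 and 431 CPM in DMSO and 113 and 93.1 CPM in 1 µM doxorubicin (-2.02 ± 0.09, limma adjusted p = 1.14e-15). CREB3L2 went from 204 and 206 CPM to 47.1 and 55.6 CPM (-1.98 ± 0.08, adjusted p = 4.66e-16) and XBP1 from 1173 and 1183 CPM to 316 and 324 CPM (-1.88 ± 0.06, adjusted p = 7.13e-18). In all 3, both treated libraries lay far below both controls. SSR1 of the translocon-associated complex had 596 and 469 CPM in DMSO and 153 and 196 CPM in the drug (-1.60 ± 0.11). SDF2L1 was at 8.87 and 6.64 CPM, a change of -1.43 ± 0.13, and the cochaperone DNAJC3 at 98.7 and 124 CPM, a change of -1.23 ± 0.11. The abundant chaperones had smaller falls. HSPA5 had 1043 and 1091 CPM (-0.65 ± 0.07, adjusted p = 1.12e-08), HSP90B1 917 and 1019 CPM (-0.66 ± 0.08) and CALR 675 and 666 CPM (-0.83 ± 0.06). ATF6 had 68.7 and 80.8 CPM against 135 and 122 CPM in DMSO (-0.78 ± 0.08), HERPUD1 changed by -0.34 ± 0.07, and EIF2AK3 was not called (-0.08 ± 0.09, adjusted p = 0.447).

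Members that rose came from every role. DNAJB9 had 38.4 and 29.2 CPM in DMSO and 88.9 and 94.4 CPM in 1 µM doxorubicin (1.42 ± 0.12, limma adjusted p = 1.79e-10), and ERN1 had 36.9 and 38.4 CPM and 91.6 and 90.1 CPM (1.25 ± 0.07, adjusted p = 2.91e-13). DERL2 rose to 49.9 and 50.2 CPM (0.86 ± 0.09), and OS9, the lectin that delivers glycoproteins to the degradation complex, to 374 and 277 CPM (0.71 ± 0.11). ERO1LB rose by 0.85 ± 0.15 while its relative ERO1L fell (-1.18 ± 0.11). The translocation genes split. SEC61B (0.41), SEC61G (0.42) and SSR4 (0.45) rose, and SEC61A1 (-0.31), SSR1 (-1.60), SSR2 (-0.83) and SSR3 (-0.83) fell. SSR4 lost its call without doxorubicin replicate 1 (adjusted p = 0.116).

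DR cells at the same 1 µM showed mainly falls. Of the 39 members, 25 fell and 2 rose, or 64.1% and 5.13%, where 19.9% and 19.1% of all genes did. The median member changed by -0.31 while the median over all genes stayed near 0. Falls were called in 9 of 11 chaperones, 5 of 6 disulfide enzymes, 6 of 9 degradation genes, 3 of 6 sensors and factors and 2 of 7 translocation genes. XBP1 was at 1024 and 1092 CPM in DMSO and 477 and 465 CPM in the drug (-1.17 ± 0.06, limma adjusted p = 1.47e-12). PDIA4 went from 411 and 414 CPM to 208 and 189 CPM (-1.05 ± 0.09) and CRELD2 from 46.5 and 48.3 CPM to 24.1 and 21.8 CPM (-1.02 ± 0.11). HSPA5 had 1665 and 1725 CPM and 975 and 958 CPM (-0.81 ± 0.07, adjusted p = 5.48e-09), its lowest level in any group. SDF2L1 changed by -0.76 ± 0.13, HERPUD1 by -0.68 ± 0.07 and HSP90B1 by -0.51 ± 0.08. DNAJB9, at 18.5 and 18 CPM in DMSO and 28 and 25.4 CPM in the drug, rose by 0.52 ± 0.12, and ERN1, at 41.8 and 41.6 CPM and 55.5 and 54.2 CPM, by 0.39 ± 0.07. EIF2AK3 was not called (-0.12 ± 0.09, adjusted p = 0.302). ATF6 was lower, at -0.23 ± 0.08 (adjusted p = 0.0303), a call lost without any 1 of the 4 libraries (adjusted p up to 0.131). In the 1 µM group the library with plasma cell markers was replicate 1, and without it 22 members fell and 2 rose, with a median of -0.37. PTPRC, 1 of 3 tested immune markers, rose, with 5.96 and 0.23 CPM in the drug, and the 5 listed summed to 22.4 and 19.7 CPM in DMSO and 30.1 and 23.7 CPM in the drug. Of 2 tested endothelial markers, VWF rose by 1.65 and CDH5 was not called (-0.356). Of 10 luminal markers 3 fell and 2 rose. The part of these markers in the result was not tested. Among the members with a stress response element the median change was -0.64, with 8 of 10 down. Among the other 29, which include the unsearched PDIA3 and DERL1, it was -0.27, with 17 down and 2 up. In parental cells at 1 µM these medians were -0.66 and -0.19. Most members with an element are chaperones, whose median was -0.51 in DR and -0.65 in parental cells at 1 µM.

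These responses have separate DMSO controls. Of the members that fell, 19 did so in both lines, which is 86.4% of the 22 in parental and 76% of the 25 in DR cells. Over all genes 2080 fell in both, which is 39.3% of those that fell in parental and 81.9% of those that fell in DR cells. They included HSPA5, HSP90B1, CALR, PDIA3, PDIA4, PDIA6, HYOU1, HERPUD1 and XBP1. DNAJB9 and ERN1 were the 2 that rose in both, which is 25% of the 8 in parental and 100% of the 2 in DR cells. Over all genes 1614 rose in both, which is 36.9% of those that rose in parental and 66.2% of those that rose in DR cells.

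**Figure D4:**
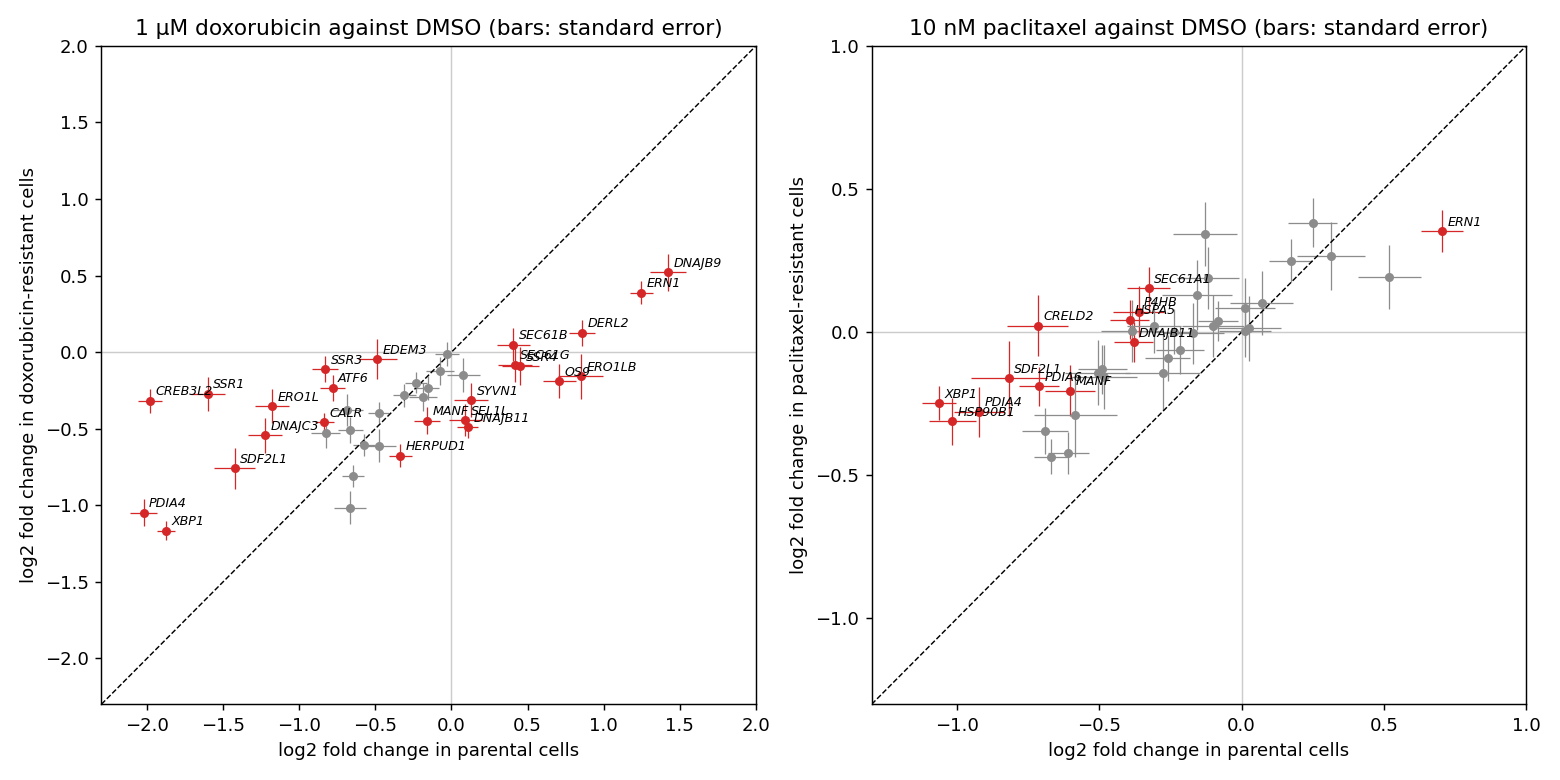
Log2 fold change of (CPM + 1) against DMSO in parental cells (horizontal) and in the resistant line (vertical) for 1 µM doxorubicin in DR cells (left) and 10 nM paclitaxel in PR cells (right), with standard errors as bars and equal responses on the dashed line. Red points are the 24 and 12 members whose responses differed between the lines, and most lie nearer to 0 on the vertical axis than on the horizontal one.

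The sizes differed between the lines for 24 of 39 members (61.5%, where 58.3% of all genes differed), a share near the background. The difference was positive for 11 (28.2%, against 33.2% of all genes) and negative for 13 (33.3%, against 25.1%). Without the DR library that holds plasma cell markers it was positive for 10 and negative for 12. The larger side turned without parental DMSO replicate 1 (12 positive and 10 negative) and without parental doxorubicin replicate 1 or DR doxorubicin replicate 2 (11 and 9 each). In 19 of the 24 the response was smaller in absolute size in DR cells, 11 having fallen and 8 having risen in parental cells. For 7 of the 24 the estimates had opposite signs in the lines. These sizes and signs were not counted over all genes, of which 39.1% were called in DR and 75.8% in parental cells at 1 µM. CREB3L2 differed by 1.66 ± 0.11 (limma adjusted p = 5.3e-11), from -1.98 in parental to -0.32 in DR cells. SSR1 differed by 1.33 ± 0.16, PDIA4 by 0.97 ± 0.12, ERO1L by 0.83 ± 0.16, SSR3 by 0.72 ± 0.12, XBP1 by 0.71 ± 0.08 and ATF6 by 0.55 ± 0.12. On the other side, ERO1LB differed by -1.01 ± 0.21, DNAJB9 by -0.90 ± 0.17, OS9 by -0.90 ± 0.15, ERN1 by -0.86 ± 0.10 and DERL2 by -0.73 ± 0.12. A larger response in DR cells was called for 5 members, among them HERPUD1 (-0.34 ± 0.11, adjusted p = 0.00808) and DNAJB11 (-0.60 ± 0.10), which was at 196 and 203 CPM in DMSO and 143 and 140 CPM in the drug. For HSPA5 (-0.16 ± 0.10), HSP90B1 (0.16 ± 0.12) and EIF2AK3 (-0.05 ± 0.13) no difference was called (adjusted p = 0.16, 0.258 and 0.779).

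The lower doxorubicin doses moved few members. At 65 nM in parental cells 2 fell and 0 rose, or 5.13%, where 5.94% of all genes fell and 5.21% rose. HSPA5 was at 1432 and 1402 CPM (-0.24 ± 0.07, limma adjusted p = 0.0282) and ERO1L at 633 and 549 CPM against 876 and 699 CPM (-0.41 ± 0.11). ERO1L lost its call without parental DMSO replicate 1 or doxorubicin replicate 2, and HSPA5 without these or doxorubicin replicate 1 (adjusted p up to 0.316 and 0.239). Without DMSO replicate 1 or doxorubicin replicate 2, 0 members were called, and without DMSO replicate 2, 9 were. HSP90B1 (-0.10), XBP1 (0.07), ATF6 (-0.12), ERN1 (-0.08), EIF2AK3 (0.01) and HERPUD1 (-0.22, adjusted p = 0.0613) were not called. At 350 nM in DR cells, 2 members fell (5.13%, where 1.43% of all genes fell and 2.39% rose, or 3.81% in all). They were XBP1 at 916 and 899.6 CPM (-0.22 ± 0.06, adjusted p = 0.039) and DNAJB11 (-0.25 ± 0.07). Both lost their calls without any 1 of the 4 libraries, when 0 or 1 members were called (adjusted p up to 0.343 and 0.274). HSPA5 (-0.20), HSP90B1 (-0.03), HERPUD1 (-0.20), ERN1 (-0.02) and EIF2AK3 (0.21) were not called, nor was ATF6 (adjusted p = 0.992).

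In DMSO the resistant lines differed from parental cells in about the share of members that all genes gave. With the correction for GC content and length, 20 members were called in each line. The share of all genes under that correction is not given here. DR cells had 9 members lower and 2 higher (23.1% and 5.13%, where 15.2% and 12.3% of all genes were), and 28.2% of members against 27.5% of all genes were called in either direction. DNAJB9 was at 18.5 and 18 CPM in DR and 38.4 and 29.2 CPM in parental cells (-0.84 ± 0.12, limma adjusted p = 8.11e-06). ERO1L was at 445 and 448 CPM and 876 and 699 CPM (-0.81 ± 0.11) and HSP90B1 at 1116 and 1187 CPM and 1622 and 1449 CPM (-0.41 ± 0.08). P4HB, at 1326 and 1332 CPM in DR and 903 and 1034 CPM in parental cells, was higher by 0.46 ± 0.09, and CREB3 by 0.49 ± 0.11. HSPA5 levels overlapped (0.02 ± 0.07, adjusted p = 0.878), and XBP1 (-0.16), ATF6 (-0.10), ERN1 (0.14) and EIF2AK3 (0.21) were not called (adjusted p = 0.0568, 0.45, 0.16 and 0.0884). Lower calls for SSR3 (-0.34), SEL1L (-0.31), HERPUD1 (-0.24) and SDF2L1 (-0.38) were lost without parental DMSO replicate 1 (for SDF2L1 replicate 2; adjusted p up to 0.0983, 0.458, 0.124 and 0.195). The last 3 were also lost without either DR library, without which 7 (replicate 1) or 6 (replicate 2) members were called.

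PR cells in DMSO had 8 members lower and 5 higher than parental cells (20.5% and 12.8%, where 16.3% and 16.3% of all genes were), and 33.3% of members against 32.6% of all genes were called. XBP1 was at 1628 and 1578 CPM in PR and 1173 and 1183 CPM in parental cells (0.44 ± 0.06, limma adjusted p = 3.38e-06), and ATF6 at 181 and 181 CPM and 135 and 122 CPM (0.49 ± 0.08, adjusted p = 7.08e-05). ERN1, the activator of XBP1, was lower, at 29.3 and 32.7 CPM against 36.9 and 38.4 CPM (-0.28 ± 0.07). Other members that were higher were ERO1LB (0.74 ± 0.15), PDIA3 (0.35 ± 0.07) and EDEM3 (0.53 ± 0.13), a mannosidase that marks glycoproteins for degradation. DNAJB9 (-0.57 ± 0.12), ERO1L (-0.51 ± 0.11), P4HB (-0.37 ± 0.09), SEC61G (-0.36), SEC61B (-0.34) and DNAJC3 (-0.32) were lower. HSPA5 (-0.15), HSP90B1 (-0.10), EIF2AK3 (0.12) and HERPUD1 (0.03) were not called (adjusted p = 0.113, 0.385, 0.335 and 0.788). Without parental DMSO replicate 2, EDEM3 (adjusted p = 0.0922), P4HB (0.0611), SEC61B (up to 0.214) and SEC61G (up to 0.179) lost their calls. DNAJC3 lost its call without parental replicate 1 or either PR library (adjusted p up to 0.392), ERN1 without PR replicate 1 (0.119), SEC61G also without PR replicate 2 and SEC61B also without either PR library.

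Set directly against each other in DMSO, which uses the same libraries as the contrasts with parental cells, DR cells had 11 members lower and 5 higher than PR cells (28.2% and 12.8%, where 18.4% and 15.6% of all genes were, or 34.0% in all). P4HB was at 1326 and 1332 CPM in DR and 739 and 759.5 CPM in PR cells (0.83 ± 0.09, limma adjusted p = 1.14e-07). ERO1LB, at 4.57 and 5.23 CPM in DR and 11.5 and 12.1 CPM in PR cells, differed by -1.12 ± 0.15. XBP1 (-0.60 ± 0.06), ATF6 (-0.59 ± 0.08), EDEM3 (-0.53), SSR3 (-0.41) and HERPUD1 (-0.28) were lower in DR cells, and ERN1 (0.42 ± 0.07) and CREB3 (0.45) higher. HSP90B1 (-0.31) lost its call without DR replicate 1 (adjusted p = 0.0657), DERL2 (0.30) without PR replicate 1 (0.148), and HYOU1 (0.32) without any 1 of the 4 libraries (adjusted p up to 0.111). HSPA5 (0.17) and EIF2AK3 (0.09) were not called (adjusted p = 0.0688 and 0.486).

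Ruxolitinib alone lowered some chaperones in parental cells and raised 2 factors. Of the members, 6 fell and 2 rose (15.4% and 5.13%, where 7.71% and 5.51% of all genes did). HSP90B1 was at 1139 and 1095 CPM against 1622 and 1449 CPM in DMSO (-0.46 ± 0.08, limma adjusted p = 0.000502). CREB3L2 was at 265 and 272 CPM against 204 and 206 CPM (0.39 ± 0.08, adjusted p = 0.00188) and XBP1 at 1422 and 1445 CPM against 1173 and 1183 CPM (0.28 ± 0.06, adjusted p = 0.00222). These 3 kept their calls without any 1 of the 4 libraries. DNAJB9 (-0.46), PDIA4 (-0.30), DNAJB11 (-0.28), HSPA5 (-0.25) and CALR (-0.24) lost theirs without ruxolitinib replicate 2 (adjusted p up to 0.17, 0.137, 0.0845, 0.11 and 0.0904 over the libraries), with 3 members called without it and 5 without ruxolitinib replicate 1. Of these, DNAJB9 and HSPA5 also lost theirs without DMSO replicate 1, PDIA4 and CALR without DMSO replicate 2, and HSPA5, PDIA4 and CALR without ruxolitinib replicate 1. ATF6 (0.19), ERN1 (0.21), EIF2AK3 (0.23) and HERPUD1 (0.07) were not called (adjusted p = 0.153, 0.0541, 0.112 and 0.594).

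In PR cells ruxolitinib lowered 2 members and raised 0 (5.13%, where 4.06% of all genes fell and 2.86% rose, or 6.92% in all). HSP90B1 was at 1131 and 1057 CPM against 1444 and 1415 CPM (-0.39 ± 0.08, limma adjusted p = 0.0047) and CALR at 1028 and 1031 CPM against 1233 and 1248 CPM (-0.27 ± 0.06). HSP90B1 lost its call without PR DMSO replicate 1 or ruxolitinib replicate 2, and CALR without any 1 of the 4 libraries (adjusted p up to 0.0856 and 0.0744). Without DMSO replicate 1 or ruxolitinib replicate 2, 0 members were called, and without either of the other 2 libraries 1 was. XBP1 (-0.01 ± 0.06), HSPA5 (-0.18 ± 0.07), ERN1 (0.23 ± 0.07), ATF6 (0.13), HERPUD1 (0.05) and EIF2AK3 were not called (adjusted p = 0.963, 0.149, 0.0598, 0.468, 0.769 and 0.994). The difference between the lines was called by limma for 0 of 39 members, where 0.408% of all genes differed. At an unadjusted p under 0.05 there were 2, and voom also called 0. For XBP1 it was -0.29 ± 0.08 (adjusted p = 0.185) and for HSP90B1 0.07 ± 0.12 (adjusted p = 0.951). Which line had more members called depended on the fit. In fits of only the lines compared, 3 rose and 12 fell in PR cells, and 2 rose and 1 fell in parental cells. The shares of all genes in those fits are not given here.

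Added to 2.5 nM paclitaxel in parental cells, ruxolitinib raised 7 members and lowered 2 (17.9% and 5.13%, where 15.1% and 12.9% of all genes did). Those that rose were EIF2AK3 (0.40 ± 0.09, limma adjusted p = 0.0032), ERO1LB (0.45), SEL1L (0.33), DERL1 (0.31), ATF6 (0.28), HERPUD1 (0.25) and CREB3L2 (0.22). CREB3 (-0.34) and CALR (-0.17) fell. HSPA5 (0.07), HSP90B1 (-0.01), XBP1 (0.14) and ERN1 (0.04) were not called (adjusted p = 0.459, 0.911, 0.0732 and 0.74). Without paclitaxel replicate 2, or without replicate 1 of the combination, limma called 0 members (adjusted p up to 0.328 for CREB3 and 0.328 for CALR, the highest of these). CREB3 and CALR also lost their calls without paclitaxel replicate 1, and HERPUD1 without replicate 2 of the combination. The correction for GC content and length also ended the calls of CALR (adjusted p = 0.108), ERO1LB (0.414) and SEL1L (0.0809). In PR cells, ruxolitinib added to 6.5 nM paclitaxel changed 0 members by limma, where the share of all genes was 3.28% (1.16% up and 2.12% down), and HSP90B1 (-0.22), XBP1 (-0.09), ATF6 (0.17), ERN1 (0.13), HERPUD1 (0.15), EIF2AK3 (0.10) and HSPA5 (-0.05) stayed below the threshold. At an unadjusted p under 0.05 there were 5 members, and voom called 1.

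A further list held 30 genes of ATF4 and the integrated stress response, and shares no gene with the members. It includes EIF2AK1, EIF2AK2 and EIF2AK4, the kinases related to PERK (EIF2AK3), so it is not particular to PERK. Which kinase, if any, bears on its changes was not tested. Under the high doses of both drugs ATF3 and PPP1R15A rose most, while the list as a whole was mixed. At 10 nM paclitaxel in parental cells 9 rose and 10 fell (30% and 33.3%, where 20.1% and 28.1% of all genes did), with ATF3 (2.68 ± 0.12), PPP1R15A (2.60 ± 0.16), the subunit that brings a phosphatase to the translation factor eIF2 alpha, DDIT3 (1.30 ± 0.11), which encodes CHOP, and NUPR1 (1.18 ± 0.15) leading. In PR cells at 10 nM 4 rose and 5 fell (13.3% and 16.7%, against 6.62% and 6.99% of all genes), with ATF3 (1.85), PPP1R15A (1.55) and DDIT3 (0.77) up and DDIT4 (-0.43) down. At 1 µM doxorubicin 11 rose and 15 fell in parental cells (36.7% and 50%, against 34.3% and 41.5%), with ATF3 (4.23), PPP1R15A (4.10) and DDIT3 (3.25) up and DDIT4 (-3.16) down. In DR cells at 1 µM 5 rose and 14 fell (16.7% and 46.7%, against 19.1% and 19.9%), with ATF3 (1.54), PPP1R15A (1.51) and ATF5 (1.21) up and DDIT4 (-1.46) down. ATF3 differed between these responses by -2.69 ± 0.17 and DDIT3 by -2.48 ± 0.16 (limma adjusted p = 1.11e-11 and 1.11e-11).

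Under ruxolitinib nearly every called gene of the same list was up. In parental cells 18 of 30 rose and 2 fell (60% and 6.67%, where 5.51% and 7.71% of all genes did), with a median of 0.31, against 0.22 for the 6 sensors and factors and -0.24 for the 11 chaperones. The largest were the amino acid synthesis enzymes ASNS (1.11 ± 0.10, limma adjusted p = 3.95e-08), PHGDH (0.92 ± 0.10) and PSAT1 (0.86 ± 0.10), and the glutathione-degrading enzyme CHAC1 (0.75 ± 0.13). ASNS had 413 and 361 CPM in DMSO and 836 and 838 CPM in ruxolitinib. In PR cells 12 rose and 0 fell (40% up, where 2.86% of all genes rose and 4.06% fell), with a median of 0.21, led by DDIT4 (0.61 ± 0.09), PHGDH (0.59 ± 0.10), ASNS (0.58 ± 0.10) and NUPR1 (0.55 ± 0.15). Added to paclitaxel, ruxolitinib raised 12 and lowered 3 in parental cells (40% and 10%, where 15.1% and 12.9% of all genes did; ASNS 1.21, PSAT1 1.05, PHGDH 0.84, ATF5 -0.78) and raised 6 in PR cells (20%, where 1.16% of all genes rose; DDIT4 0.62, ASNS 0.61, PSAT1 0.45, PHGDH 0.40). At 65 nM doxorubicin in parental cells 13 of the 30 fell and 1 rose (43.3% and 3.33%, against 5.94% and 5.21% of all genes), with ASNS at -0.74, and in DR against parental cells in DMSO 14 were lower and 1 higher (46.7% and 3.33%, against 15.2% and 12.3%), with the secreted factor STC2 at -0.86.

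**Figure D5:**
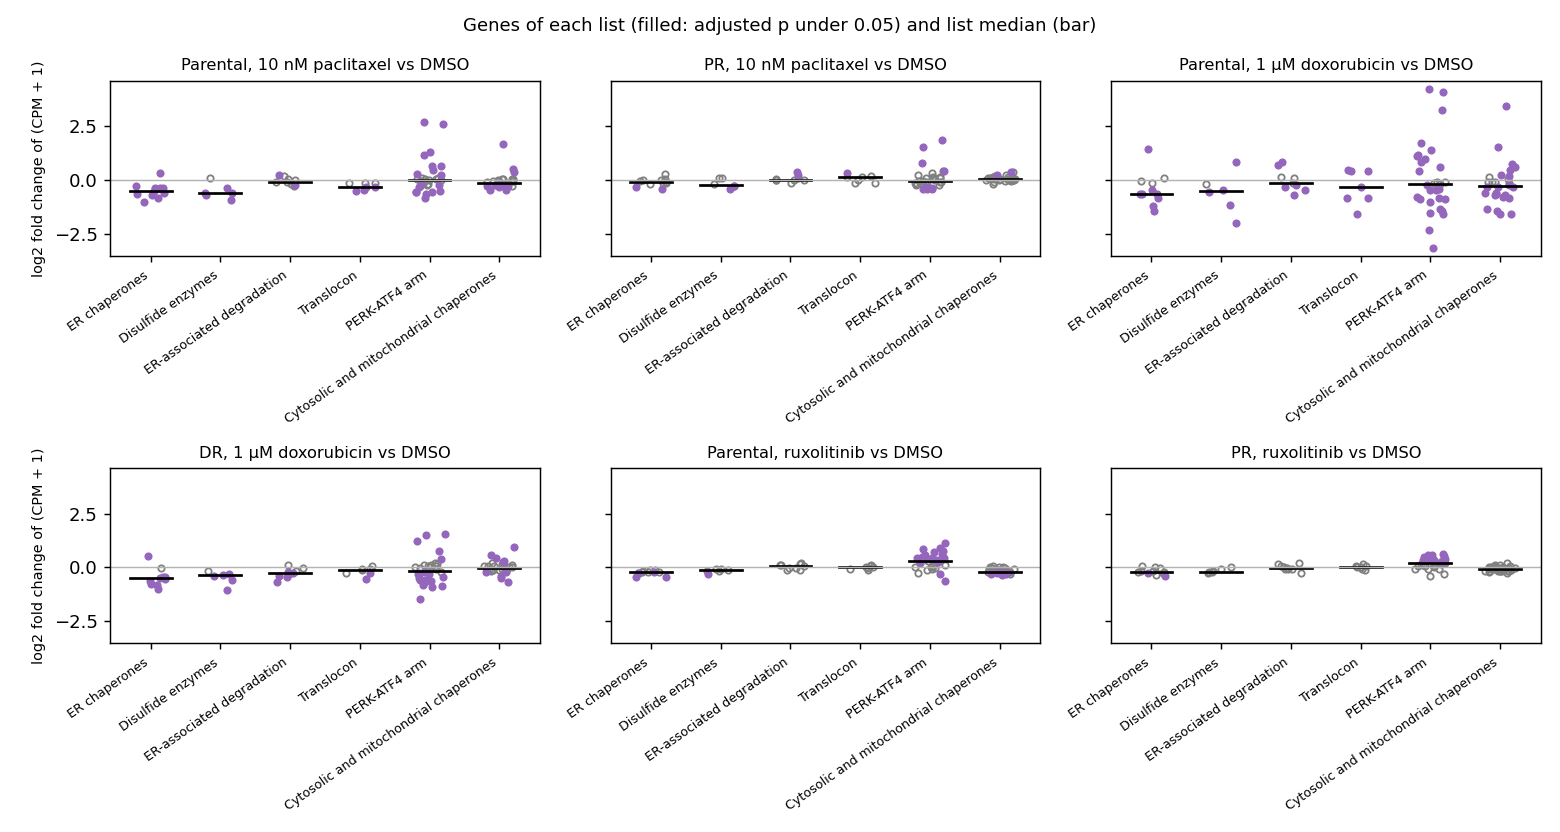
Log2 fold change of (CPM + 1) for each gene (points, filled where the adjusted p was under 0.05) of 4 roles among the members and 2 further lists in 6 comparisons, with the list median as a bar. The chaperone median is at -0.51 for 10 nM paclitaxel and -0.65 for 1 µM doxorubicin in parental cells. It is at -0.51 for 1 µM doxorubicin in DR cells. The list marked PERK-ATF4 arm holds integrated stress response genes and is not particular to PERK. Its median is at 0.31 for ruxolitinib in parental cells.

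Further ER genes were described in 4 other lists, namely 31 genes of translocation, signal peptide cleavage and glycosylation, 30 folding enzymes, 19 degradation genes and 22 genes of COPII vesicles and ER-to-Golgi transport. At 10 nM paclitaxel in parental cells 28.1% of all genes fell and 20.1% rose. Of the glycosylation list 18 fell and 1 rose (58.1% and 3.23%), with SPCS3 at -0.76, MAGT1 at -0.63, STT3B at -0.60 and UGGT1 at -0.57. Of the folding enzymes 17 fell and 3 rose (56.7% and 10%), with SUMF1 at -0.71 and the prolyl isomerase FKBP11 up by 1.26. Of the degradation genes 6 fell and 3 rose (31.6% and 15.8%), and of the transport genes 9 fell and 0 rose (40.9% down), among them TMED7 (-0.78) and LMAN1 (-0.76). In PR cells at 10 nM, where 6.99% of all genes fell and 6.62% rose, the same lists had 2 down and 4 up, 4 down and 2 up, 1 down and 4 up, and 3 down and 0 up.

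At 1 µM doxorubicin in parental cells 41.5% of all genes fell and 34.3% rose. There 17 glycosylation genes fell and 8 rose (54.8% and 25.8%), with MOGS at -1.23 and TUSC3 at 1.15, and 19 folding enzymes fell and 7 rose (63.3% and 23.3%), led by PDIA5 (-1.88). Of the degradation genes 9 fell and 8 rose (47.4% and 42.1%), with the ubiquitin-conjugating enzyme UBE2J1 at -1.27 and SELK at 0.90. Of the transport genes 11 fell and 5 rose (50% and 22.7%), where the coat subunit SEC23A changed by -2.02 ± 0.10. In DR cells at 1 µM, where 19.9% of all genes fell and 19.1% rose, 8 glycosylation genes fell and 0 rose (25.8% down; MLEC -0.37), and 13 folding enzymes fell and 2 rose (43.3% and 6.67%). There 3 degradation genes fell and 2 rose (15.8% and 10.5%), and 7 transport genes fell and 2 rose (31.8% and 9.09%).

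Chaperones of other compartments changed less evenly. Of 28 cytosolic and mitochondrial chaperones, 10 fell and 3 rose at 10 nM paclitaxel in parental cells (35.7% and 10.7%, where 28.1% and 20.1% of all genes did). At 1 µM doxorubicin 15 fell and 7 rose in parental cells (53.6% and 25%, against 41.5% and 34.3%), and 5 fell and 5 rose in DR cells (17.9% each, against 19.9% and 19.1%). The small heat shock protein HSPB8 rose by 1.65 ± 0.09, 3.43 ± 0.09 and 0.94 ± 0.09 in these comparisons. The mitochondrial TRAP1 changed by -0.48 and -1.59 in the first 2, and HSPA8 by -0.49 in the first. At 10 nM in PR cells 0 fell and 2 rose. Under ruxolitinib 7 of the 28 fell in parental cells (25%, where 7.71% of all genes did) and 0 rose, with HSP90AA1 at -0.29 and HSP90AB1 at -0.29.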

How the data were processed

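Poly-A RNA of 30 libraries in 15 groups of 2 was sequenced. The submitters' processing notes name the aligner STAR 2.5.1b, the build GRCh37 (hg19) and edgeR. The read counter is not given in the sources used here, nor is the annotation. The authors deposited 1 table of log2(CPM + 1) values, with CPM scaled by the trimmed mean of M-values (TMM), for 20114 gene symbols. Every value was a whole multiple of the library's smallest step (tolerance 0.01 reads, 100% of values), which gave back 18443749 to 32669995 reads per library. A count of 0 allows up to 3 reads, or 0.0947 to 0.163 CPM, a limit that covers counting error only.

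The 12743 genes that reached 1 CPM in 2 or more libraries were fitted in limma 3.58.1 (R 4.3.3) on the deposited log2 values, with a mean for each of 15 groups, intensity-trended and robust variances and 15 residual degrees of freedom. Two-sided p-values were adjusted by Benjamini-Hochberg within each of 18 comparisons, 3 of them differences of responses between lines. Comparisons with the same control group depend on each other. Values are differences ± SE on the log2(CPM + 1) scale, which understates changes of low genes. The fit was also run on simulated data, the result of which is not given here. The simulated errors were independent, without the replicate differences along GC content or the plasma cell RNA, so that run does not bear on them. Tables and figures were made in Python 3.11.15 with pandas 2.3.3 and matplotlib 3.10.9.

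The members and lists were chosen with earlier results of these data known. Named were, per comparison, up to 6 called members in each direction with the largest change, with HSPA5, HSP90B1, HERPUD1, XBP1, ATF6, ERN1 and EIF2AK3 throughout, other members in the description of their role, and up to 4 called genes of each further list. Alternatives were a pseudocount of 0.25, no filter, the replicate number as a block, scaling by median of ratios, only the lines compared, voom on the recovered reads, a correction for GC content and length (GENCODE v29 transcripts, 98.98% of genes) and leaving out each library. Leaving out both libraries with plasma cell markers was added after the data were seen. Promoters came from RefSeq (GRCh38.p14), and none of their coordinates was used with the deposited values. Protein sequences were not analysed here.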

Additional observations from a re-analysis of the deposited data

Results flagged for a closer look

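The responses to 1 µM doxorubicin differed between DR and parental cells for 24 members (limma interaction term, adjusted p under 0.05), where 58.3% of all genes differed. Among those named, the difference (DR minus parental, log2 scale) was positive for CREB3L2 at 1.66, SSR1 at 1.33, PDIA4 at 0.974, ERO1L at 0.825, SSR3 at 0.716, XBP1 at 0.712 and ATF6 at 0.547. It was negative for ERO1LB at -1.01, DNAJB9 at -0.901, OS9 at -0.898, ERN1 at -0.86, DERL2 at -0.735, DNAJB11 at -0.599 and HERPUD1 at -0.341.

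The responses to 10 nM paclitaxel differed between PR and parental cells for 12 members by the same test, where 10.8% of all genes differed. The difference (PR minus parental) was 0.816 for XBP1, 0.739 for CRELD2, 0.704 for HSP90B1, 0.656 for SDF2L1, 0.645 for PDIA4, 0.523 for PDIA6 and 0.437 for HSPA5, and -0.352 for ERN1.

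Outside the genes tested for the members, 2 libraries held RNA of plasma cell markers above the level in the DMSO libraries. In DR cells at 1 µM doxorubicin, replicate 1, IGJ was at 218.2 CPM, IRF4 at 17.64 CPM, MZB1 at 10.76 CPM, TNFRSF17 at 4.007 CPM and DERL3 at 0.347 CPM. In PR cells at 10 nM paclitaxel, replicate 2, IGJ was at 15.65 CPM, IRF4 at 10.56 CPM, MZB1 at 1.595 CPM, TNFRSF17 at 2.963 CPM and DERL3 at 2.77 CPM.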

How the results depend on the processing

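No named call changed sign under an alternative. For the difference of doxorubicin responses the larger side turned, with 12 members positive and 10 negative without parental DMSO replicate 1, and 11 and 9 without parental doxorubicin replicate 1 or DR doxorubicin replicate 2. Of the 136 named calls, 83 held without any 1 library while 53 did not. The other alternatives ended only calls among those 53, namely 27 in fits of only the lines compared, 7 without both libraries with plasma cell markers, 6 with no filter, 5 with the correction for GC content and length, and 1 each with median-of-ratios scaling, the replicate block and voom, and 0 with the pseudocount of 0.25. Replicate numbers gave no pairing common to all groups (correlations of deviations over 105 pairs of groups from -0.689 to 0.65, median 0.00164). Of these pairs, 30 were over 0.1, so libraries of some groups may still share structure, the source of which was not tested. With the replicate block, 1 member (against 0) was called for ruxolitinib added to 6.5 nM paclitaxel in PR cells, 1 of the 136 named calls was lost, and no other count moved by over 1.5 times. That comparison also gave 1 member with no filter, with median-of-ratios scaling, with voom and without both libraries with plasma cell markers. The correction for GC content and length moved these counts: 20 for DR and 20 for PR against parental cells in DMSO, 10 at 65 nM and 9 at 350 nM doxorubicin, 2 at 6.5 nM paclitaxel, 16 and 11 for ruxolitinib in parental and PR cells, 5 for ruxolitinib added to paclitaxel in PR cells, 21 for the difference of paclitaxel responses and 1 for that of ruxolitinib responses. Fits of only the lines compared gave 8 at 2.5 nM paclitaxel, 0 at 65 nM and 0 at 350 nM doxorubicin, 3 and 15 for ruxolitinib in parental and PR cells, and 2 and 5 when added to paclitaxel. Without both libraries with plasma cell markers, 1 was called at 350 nM doxorubicin and 6 at 10 nM paclitaxel in PR cells. The shares of all genes called under these alternatives are not given here, so these counts have no background beside them. The cause of these moves was not tested.

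Leaving out 1 library at a time gave 6 to 11 members for DR and 9 to 13 for PR against parental cells, and 12 to 13 for DR against PR cells. In parental cells it gave 5 to 20 at 2.5 nM and 22 to 25 at 10 nM paclitaxel, 0 to 9 at 65 nM and 29 to 32 at 1 µM doxorubicin, 3 to 7 for ruxolitinib and 0 to 8 for its addition to paclitaxel. In DR cells it gave 0 to 1 at 350 nM and 19 to 24 at 1 µM doxorubicin. In PR cells it gave 0 at 6.5 nM and 3 to 9 at 10 nM paclitaxel, 0 to 1 for ruxolitinib and 0 for its addition to paclitaxel. For the differences of responses it gave 20 to 26 (doxorubicin), 7 to 14 (paclitaxel) and 0 (ruxolitinib). Where a group keeps 1 library, that library is assumed to vary like the other groups. Results under these alternatives are not given for genes of the further lists.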
